A study of Mus musculus with 6 samples.

Results

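The proteasome is the barrel-shaped protease that degrades proteins tagged with ubiquitin. Its 20S core stacks outer rings of alpha subunits, which gate the entrance, around inner rings of beta subunits, some of which cut the substrate. The 19S cap holds ATPases that unfold the substrate, receptors that bind ubiquitin and an enzyme that removes it, while other activators, an inhibitor and dedicated chaperones attach to the core or help to build it. In brown adipose tissue of mice, the fat that burns fuel to make heat, proteasome genes are known to be raised by the transcription factor Nfe2l1 during adaptation to cold.

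The genes of this complex were taken by their names: probe sets whose single platform gene symbol starts with Psma, Psmb, Psmc, Psmd, Psme, Psmf or Psmg followed by a digit, without the interferon-inducible Psmb8, Psmb9 and Psmb10. The rule gave 82 of 20380 probe sets with a single symbol, and 45 of the 12393 genes tested. Among the 45 genes, 43 encode subunits, activators, an inhibitor or assembly chaperones. The other 2, Psmc3ip, a factor of meiotic recombination, and Psme3ip1, which binds the nuclear activator Psme3, share only the start of the name and are described apart. Psme2 shares its probe set with Psme2b and is not analysed here.

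RNA came from brown adipose tissue of mice 3.5 months old, of mixed C57BL6 and 129 background, that ate high fat chow during 3 of those months. The control group was YY1flox/flox (3 arrays), and the YY1bKO group was YY1flox/flox; Ucp1Cre (3 arrays), so both carried floxed alleles of Yy1, a zinc finger transcription factor. Cre was driven by the promoter of Ucp1, a gene of brown adipocytes, so that other cells of the tissue would keep the factor. Values are log2 of the deposited intensity, and differences are YY1bKO minus control. A gene was called higher or lower at an adjusted p under 0.05 from limma's moderated test over all genes, with its brightest probe set standing for it.

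Yy1 fell by 1.43 on the log2 scale (adjusted p = 0.000854), with 9.90, 9.62 and 9.95 in the control arrays and 8.38, 8.41 and 8.38 in the YY1bKO arrays. Ucp1 lay between 13.71 and 13.98 on the 6 arrays, and 1 of 10 measured brown adipocyte markers was called (higher). Of these 10 differences 8 were negative, and their median was -0.16. Skeletal muscle markers set control replicate 2 apart: the mean of 14 such genes was 11.07, 13.60 and 10.79 in the control arrays. In the YY1bKO arrays it was 12.23, 12.41 and 11.94, between control replicate 2 and the other control arrays. Leaving out control replicate 2 thus leaves every YY1bKO array above the control arrays in this signal. Of the 14 differences 13 were positive, the median of the 14 was 0.42, and 0 were called (0 also at an unadjusted p under 0.05). Endothelial markers moved with the genotype, with 3 of 6 lower and group ranges of 8.19 to 8.36 in control and 7.65 to 7.89 in YY1bKO for their mean. Macrophage (8 genes) and fibroblast (6 genes) markers had 0 calls and 0 unadjusted p under 0.05, and 1 of 8 lymphocyte markers, all of them dim, was higher. Poly-A spike-in controls of the labelling step were dimmer in all YY1bKO arrays, at 6.46 to 6.63 against 6.67 to 6.93 (mean of 27 probe sets). The exact permutation p, two-sided, was 0.1, the floor of this design. The log2 difference between 3′ and 5′ probe sets of actin was 0.95 in control replicate 2 and 1.57 to 1.65 on the other arrays. For Gapdh it was -0.04 to 0.03 on the 6 arrays. The part that other cell types and labelling play in the results below was not tested. In whole tissue, fewer cells of a type and less RNA per cell cannot be told apart.

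Of the 45 genes, 9 were called higher and 2 lower in YY1bKO tissue, and 34 did not pass the test. Over all genes tested, 10.2% were called higher and 8.09% lower (18.3% either way), against 20% and 4.44% of the 45. Since only 1 of the 45, Psma8, was dim, the bright genes are the closer background, with 14% called higher and 12.3% lower. The median log2 fold change was 0.17 over the 45 genes and 0.04 over all genes, so most differences were small, and 2 of the 45 reached 1.5-fold, Psmc3ip and Psmd8. All 3 YY1bKO values lay above all 3 control values in 23 genes and below them in 9, while in 13 the groups overlapped. Over all genes, 22.8% lay wholly above and 15.7% wholly below, or 38.5% together, and over bright genes 26.9% and 22.5%. The share of the 45 wholly below, 20%, thus lay between these backgrounds. The count of higher genes was 4, 11 and 5 when control replicate 1, 2 or 3 was left out, and 3, 4 and 4 without YY1bKO replicate 1, 2 or 3. That of lower genes stayed at 2, except for 1 without YY1bKO replicate 2.

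**Figure D1:**
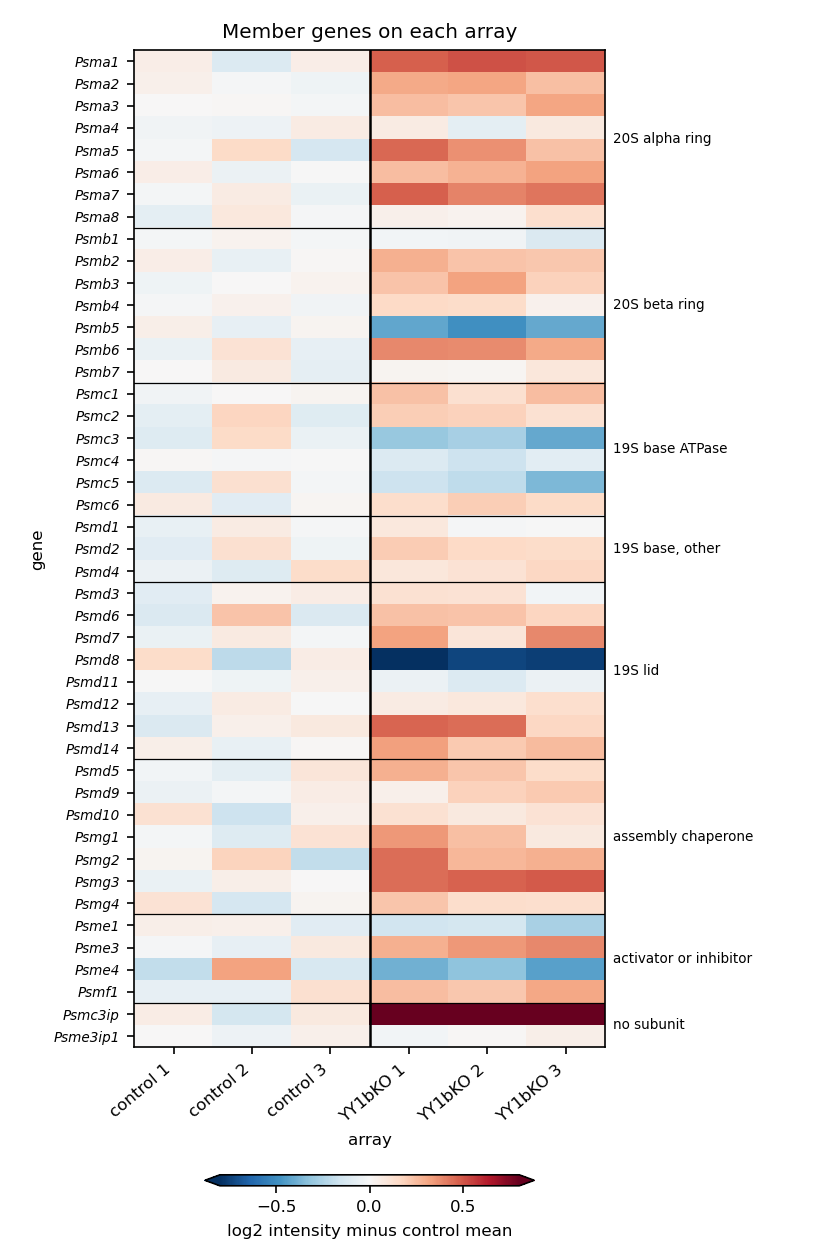
Log2 intensity of each of the 45 genes (rows, by role in the complex) on each of the 6 arrays (columns), as the difference from the mean of the 3 control arrays. Red is higher and blue lower than the control mean, and Psmc3ip lies beyond the red end of the scale. The alpha ring is red in the YY1bKO arrays for all but Psma4 and Psma8, and Psmb5 and Psmd8 are blue in all 3.

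Alpha subunits of the 20S core held 5 of the 9 rises; differences between roles were not tested. Of 8 measured genes, 5 rose and 0 fell, with a median log2 fold change of 0.28. Psma1 was at 10.25, 10.08 and 10.25 in the control arrays and 10.67, 10.70 and 10.68 in the YY1bKO arrays. The YY1bKO values lay within a few hundredths of each other and well above every control value. Its log2 fold change was 0.49 ± 0.08 (SE, adjusted p = 0.00892), or 1.41-fold. Psma1 remained called without any single array, but not when its 3 probe sets were averaged (0.10, adjusted p = 0.615). Both others were dim and gave -0.15 and -0.06.

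Psma7, which sits in the same ring, was at 10.33, 10.42 and 10.30 in the control arrays and 10.83, 10.75 and 10.78 in the YY1bKO arrays, with no overlap. It rose by 0.43 ± 0.07 (SE, adjusted p = 0.0111), and its other probe set, also bright, gave 0.39 (adjusted p = 0.0202 over all probe sets). The call was lost, narrowly, without YY1bKO replicate 1 (adjusted p = 0.0512). Psma2, at 11.26, 11.21 and 11.18 in the control arrays and 11.52, 11.53 and 11.45 in the YY1bKO arrays, rose by 0.29 ± 0.07 (SE, adjusted p = 0.0357). Psma3 was at 12.01, 12.02 and 11.99 in the control arrays and 12.25, 12.23 and 12.33 in the YY1bKO arrays and rose by 0.26 ± 0.07 (SE, adjusted p = 0.0449). Neither gene overlapped between groups, yet both calls were lost when any array but control replicate 2 was left out, with adjusted p of 0.0806 to 0.122 for Psma2 and 0.0974 to 0.148 for Psma3. Psma3 also missed the threshold after median centring (0.0508).

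Psma6 was at 12.07, 11.97 and 12.01 in the control arrays and 12.27, 12.30 and 12.34 in the YY1bKO arrays, a rise of 0.28 ± 0.07 (SE, adjusted p = 0.0387). A second bright probe set of Psma6 was called too (0.29), and of 2 dim ones, 1 went the other way (-0.23). Leaving out any single array ended the call (adjusted p = 0.0538 to 0.132), as did averaging its probe sets (0.13, adjusted p = 0.251). Psma5 also lay wholly higher, at 10.82, 10.995 and 10.70 in the control arrays and 11.30, 11.20 and 11.08 in the YY1bKO arrays, without passing the test (0.35 ± 0.11, SE, adjusted p = 0.0637), whereas another bright probe set did pass (0.46, adjusted p = 0.0165 over all probe sets). Control replicate 2 was the highest of its control values, and without that array Psma5 was called (0.43, adjusted p = 0.0217). Psma4 gave 0.02 ± 0.08 (SE, adjusted p = 0.889), with overlapping groups. Psma8, an alpha subunit of the testis, was dim at 3.61 to 3.83 on all arrays and was not called (adjusted p = 0.620).

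The sequences around the start sites of 2 alpha genes that rose are shown for a short motif they share. They are RefSeq windows of GRCm38.p6, from 250 bases before to 50 after the start site, read 5′ to 3′ on the gene's strand, Psma1 at chr7:114276067-114276366 (minus strand) and Psma3 at chr12:70974373-70974672 (plus strand). Capitals mark, on either strand, the letters CCAAT (reverse ATTGG), the box known to be bound by the factor NF-Y.
Psma1: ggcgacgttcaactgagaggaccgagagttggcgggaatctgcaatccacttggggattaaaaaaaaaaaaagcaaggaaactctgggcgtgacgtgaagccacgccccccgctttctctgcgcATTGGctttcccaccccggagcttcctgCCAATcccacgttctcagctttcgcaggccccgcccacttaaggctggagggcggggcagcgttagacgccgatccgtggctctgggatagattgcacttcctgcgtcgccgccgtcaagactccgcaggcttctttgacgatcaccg
Psma3: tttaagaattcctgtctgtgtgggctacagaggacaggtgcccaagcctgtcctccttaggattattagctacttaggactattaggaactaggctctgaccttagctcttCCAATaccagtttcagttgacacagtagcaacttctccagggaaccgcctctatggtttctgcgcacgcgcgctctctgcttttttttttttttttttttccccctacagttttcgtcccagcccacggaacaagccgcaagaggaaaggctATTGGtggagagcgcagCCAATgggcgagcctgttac
The Psma1 window holds the box at positions -126 and -98 from the start site, and that of Psma3 holds it at -139, 13 and 30.

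Of 7 measured beta subunits of the core, all bright, 1 rose, 1 fell and 5 were not called, with a median of 0.11. Each call is 14.3% of the 7, near the 14% and 12.3% of bright genes called higher and lower. Psmb5, which carries the chymotrypsin-like activity, the main cutting site of the core, fell. It was at 11.31, 11.20 and 11.29 in the control arrays and 10.85, 10.78 and 10.85 in the YY1bKO arrays. Every YY1bKO value was lower than every control value, by a gap several times the spread within either group. The log2 fold change was -0.44 ± 0.07 (SE, adjusted p = 0.0107), or 1.35-fold lower. A single probe set stands for Psmb5, and the call was lost, narrowly, without YY1bKO replicate 2 (adjusted p = 0.0509).

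Psmb6, which carries the caspase-like activity, rose. It was at 10.71, 10.88 and 10.70 in the control arrays and 11.14, 11.13 and 11.06 in the YY1bKO arrays, with control replicate 2 the highest control value and no overlap between groups. Its log2 fold change was 0.36 ± 0.08 (SE, adjusted p = 0.0291). The call was kept without control replicate 2, and lost without any other single array (adjusted p = 0.0761 to 0.103). Psmb7, the trypsin-like subunit, was at 9.45, 9.52 and 9.38 in the control arrays and 9.47, 9.47 and 9.55 in the YY1bKO arrays, overlapping, and gave 0.04 ± 0.08 (SE, adjusted p = 0.748). Among the beta subunits without catalytic sites, Psmb2 (0.24 ± 0.07, SE, adjusted p = 0.0643) and Psmb3 (0.25 ± 0.07, SE, adjusted p = 0.0659) lay wholly above control without passing. Psmb2 passed in 3 of 14 alternatives (adjusted p from 0.0362 to 0.186) and Psmb3 in 5 (0.0401 to 0.201). Psmb4 gave 0.11 with overlapping groups. Psmb1 gave -0.05 with the YY1bKO values just below those of control.

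Each catalytic subunit has a counterpart that interferons induce and that takes its place in the immunoproteasome, Psmb8 for Psmb5, Psmb9 for Psmb6 and Psmb10 for Psmb7. The 3 counterparts, left out of the 45 genes by their rule, were all called higher. Psmb9 rose by 0.64 ± 0.10 (SE, adjusted p = 0.00714), Psmb8 by 0.57 ± 0.11 (SE, adjusted p = 0.0168) and Psmb10 by 0.36 ± 0.08 (SE, adjusted p = 0.0200). The Psmb8 call was lost without YY1bKO replicate 1 or 2 (adjusted p = 0.0675 and 0.0686), and that of Psmb10 without control replicate 1 or any YY1bKO array (0.0513 to 0.0801). Within each array, the log2 ratio of Psmb8 to Psmb5 was -3.17, -3.25 and -3.36 in control and -2.23, -2.08 and -2.46 in YY1bKO, a shift of 1.00, or 2.01-fold. The ratio of Psmb9 to Psmb6 shifted by 0.29 and that of Psmb10 to Psmb7 by 0.32. In all 3 pairs every YY1bKO ratio lay above every control ratio, and the exact permutation p (two-sided) was 0.1, also after Benjamini-Hochberg adjustment over the 3 pairs, the smallest this design allows. Such ratios show unequal change of a pair and compare no levels between probe sets.

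**Figure D2:**
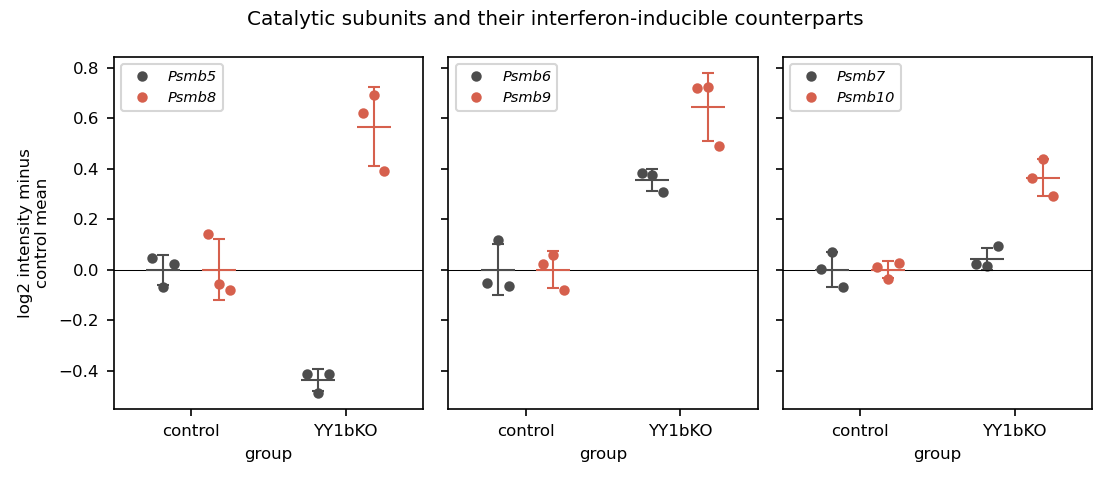
Log2 intensity minus the control mean (vertical axis) in control and YY1bKO arrays for the catalytic subunits Psmb5, Psmb6 and Psmb7 (grey) and their interferon-inducible counterparts (red). Points are arrays, and bars are the mean and SD of 3 arrays. Psmb5 lies below its control mean in YY1bKO arrays while Psmb8 lies above it.

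The start-site windows of Psmb5 at chr14:54617946-54618245 (minus strand) and Psmb6 at chr11:70525107-70525406 (plus strand) are shown because these members of the same ring moved in opposite directions. Capitals mark AANATGGCG, the core of the known YY1 recognition sequence, and TGACNNNGC, the core of the element known to be bound by Nfe2l1 and Nfe2l2, on either strand.
Psmb5: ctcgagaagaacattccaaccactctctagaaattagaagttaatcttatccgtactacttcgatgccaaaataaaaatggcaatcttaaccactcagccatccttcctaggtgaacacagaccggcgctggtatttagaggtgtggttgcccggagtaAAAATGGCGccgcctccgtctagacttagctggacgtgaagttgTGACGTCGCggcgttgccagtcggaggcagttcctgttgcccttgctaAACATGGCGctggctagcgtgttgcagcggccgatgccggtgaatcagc
Psmb6: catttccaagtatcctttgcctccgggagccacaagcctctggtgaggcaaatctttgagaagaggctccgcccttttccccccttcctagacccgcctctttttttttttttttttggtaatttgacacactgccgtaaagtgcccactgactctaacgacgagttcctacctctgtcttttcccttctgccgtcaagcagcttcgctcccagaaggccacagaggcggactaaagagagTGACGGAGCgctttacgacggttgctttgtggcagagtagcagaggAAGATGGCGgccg
Both windows hold both motifs and neither holds CCAAT. AANATGGCG lies at positions -91 and 1 in Psmb5 and at position 37 in Psmb6, so that the last 2 of these lie in the transcribed part. TGACNNNGC lies at -47 in Psmb5 and at -9 in Psmb6.

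Among the 17 genes of the 19S cap that carry the family name, 1 was called, the fall of Psmd8, and the median was 0.12. Thus 0% were called higher and 5.88% lower, against 14% and 12.3% of bright genes. The lid subunit Sem1, which the naming rule does not take, was called higher and is described with the partners. Psmd8 belongs to the lid, the part that holds the deubiquitinating enzyme. Its levels were 11.57, 11.21 and 11.48 in the control arrays and 10.62, 10.69 and 10.67 in the YY1bKO arrays, so that the lowest control array still lay well above the highest YY1bKO array. Its log2 fold change of -0.76 ± 0.11 (SE, adjusted p = 0.00615), or 1.70-fold lower, was the largest fall among the 45 genes. The call was kept in all 14 alternatives, which left it between -0.87 and -0.69. Psmd8 has 1 probe set on the array.

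Around its start site, at chr7:29180624-29180923 (minus strand), Psmd8 holds the reverse of AANATGGCG, in capitals, across the start site itself (position -8), and neither other motif. Its sequence is given as that of the gene with the largest fall.
Psmd8: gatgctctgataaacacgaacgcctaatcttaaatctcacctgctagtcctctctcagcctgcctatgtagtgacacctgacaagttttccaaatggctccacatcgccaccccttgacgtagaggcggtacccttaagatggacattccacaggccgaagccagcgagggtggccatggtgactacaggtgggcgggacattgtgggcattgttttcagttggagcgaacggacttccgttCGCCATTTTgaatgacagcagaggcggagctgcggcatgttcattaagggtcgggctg

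The remaining 7 lid genes of the family name were not called. Psmd14, the deubiquitinating enzyme, lay wholly above control (0.26 ± 0.08, SE, adjusted p = 0.0552) and passed in 6 of 14 alternatives. Psmd13 was at 8.27, 8.43 and 8.47 in the control arrays and 8.86, 8.84 and 8.55 in the YY1bKO arrays, wholly above, with YY1bKO replicate 3 close to control (0.36 ± 0.11, SE, adjusted p = 0.0687). Psmd7 gave 0.27, Psmd6 0.21, Psmd12 0.10 and Psmd3 0.07, and Psmd11, with 6 probe sets of mixed sign, gave -0.07. Of the 4 bright probe sets of Psmd11, 1 was positive (0.10) and 0 were called. Others of the 4 gave -0.26 and -0.23, wholly below control (limma adjusted p = 0.0612 and 0.132 over all probe sets). For Psmd6, control replicate 2 was at 11.11 and both other control arrays at 10.77, and without replicate 2 the gene was called higher (0.33, adjusted p = 0.0238). In the base, the ubiquitin receptor Psmd4 gave 0.12, the large scaffold subunit Psmd2 0.17 and the other, Psmd1, 0.02, and 0 of these 3 passed (0 also at an unadjusted p under 0.05).

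The 6 ATPases of the base form 1 hexamer and split evenly by sign, with 0 calls. Before adjustment, limma's p was under 0.05 for 1 rise and 2 falls. The same held for 2220 rises and 1740 falls among all 12393 genes, and for 1550 and 1432 among 6919 bright genes. Psmc1 (0.20), Psmc2 (0.17) and Psmc6 (0.16) had positive differences, and Psmc3 (-0.33), Psmc5 (-0.24) and Psmc4 (-0.12) negative ones. Psmc3 was at 9.87, 10.12 and 9.92 in the control arrays and 9.67, 9.70 and 9.56 in the YY1bKO arrays, wholly below control (adjusted p = 0.0609). It passed in 2 of 14 alternatives, with dim probe sets removed (adjusted p = 0.0428) and with the mean of the muscle markers as a covariate (-0.36, adjusted p = 0.0125). Psmc5 was at 9.87, 10.11 and 9.97 in the control arrays and 9.82, 9.78 and 9.63 in the YY1bKO arrays, also wholly below (adjusted p = 0.139), and passed narrowly with that covariate (-0.27, adjusted p = 0.0492). In both genes control replicate 2, the array with the most muscle marker signal, was the highest of the 6. The window of Psmc5, at chr11:106255935-106256234 (plus strand), is shown as the last of 4 with a match to AANATGGCG, at position 3 (capitals).
Psmc5: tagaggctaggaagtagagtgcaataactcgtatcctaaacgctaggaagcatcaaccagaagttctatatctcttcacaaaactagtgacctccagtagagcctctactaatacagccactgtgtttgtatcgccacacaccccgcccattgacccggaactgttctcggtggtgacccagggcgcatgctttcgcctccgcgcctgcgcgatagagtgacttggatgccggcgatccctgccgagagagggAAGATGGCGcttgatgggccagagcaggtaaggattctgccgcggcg

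**Figure D3:**
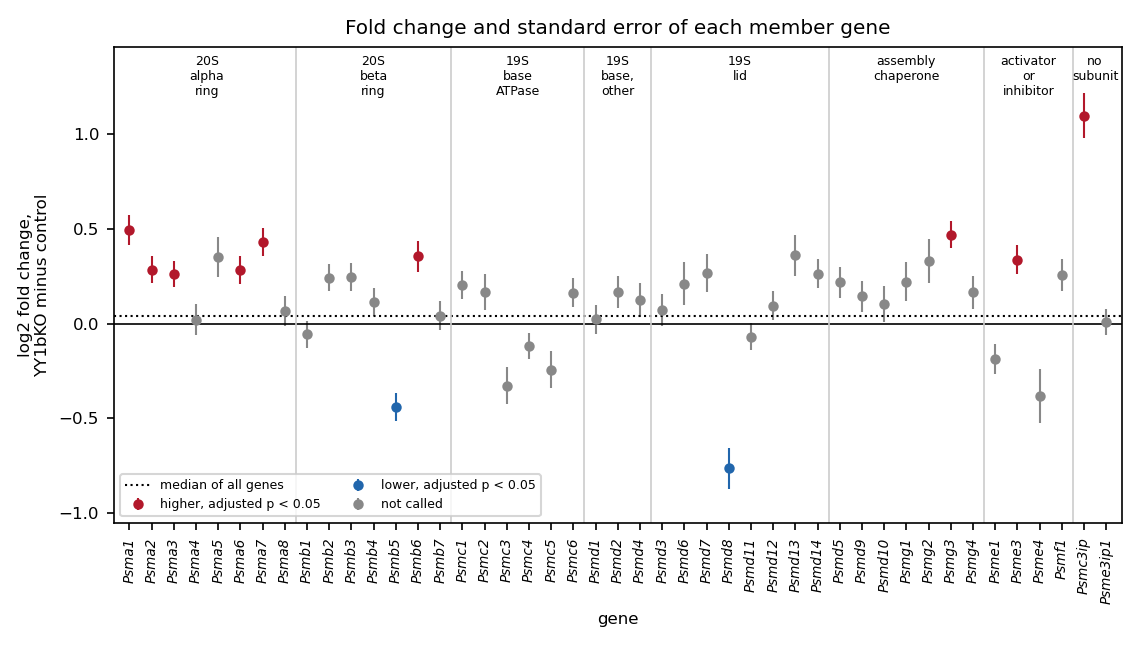
Log2 fold change, YY1bKO minus control (vertical axis), of each of the 45 genes by role (horizontal axis), with the moderated standard error as bars. Red and blue points passed an adjusted p of 0.05 and grey ones did not; the dotted line is the median of all genes, 0.04. The alpha ring holds 5 of the 9 higher genes, and the 6 ATPases hold no call.

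Assembly chaperones all had positive differences, 7 of 7, with 1 call and a median of 0.22. Among bright genes, 3553 of 6919 had positive differences. The 1 call is 14.3% of the 7, where 14% of bright genes were called higher. Psmg3, which helps to build the alpha ring, was at 7.69, 7.79 and 7.75 in the control arrays and 8.19, 8.21 and 8.24 in the YY1bKO arrays. The 3 YY1bKO values were tightly grouped and far above control. It rose by 0.47 ± 0.07 (SE, adjusted p = 0.00763), or 1.38-fold, and was called in all 14 alternatives. Psmg2, partner of Psmg1 in another such chaperone, gave 0.33 in 1 probe set and 0.39 in the other, with neither called, and was called without control replicate 2 (0.42, adjusted p = 0.0304). Psmg1 gave 0.22 and Psmg4, the partner of Psmg3, 0.17. The chaperones of the ATPase ring, Psmd5, Psmd9 and Psmd10, gave 0.22, 0.14 and 0.10.

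Among the activators and the inhibitor, 1 of 4 genes was called higher (25%) and 0 lower, where 14% and 12.3% of bright genes were. Psme3, the activator of the nucleus, was at 8.81, 8.75 and 8.90 in the control arrays and 9.11, 9.17 and 9.20 in the YY1bKO arrays and rose by 0.34 ± 0.08 (SE, adjusted p = 0.0275). Of its 3 probe sets, a dim one was also called (0.38) and the dimmest gave -0.02. The call of Psme3 was lost without control replicate 1 or any YY1bKO array (adjusted p = 0.0714 to 0.102) and when its probe sets were averaged (0.24, adjusted p = 0.0820). Psme1, part of the activator that interferon-gamma induces, lay wholly below control (-0.19 ± 0.08, SE, adjusted p = 0.169), unlike the interferon-inducible beta subunits; the difference between them was not tested. Psme4, an activator of the nucleus that favours acetylated histones, was at 10.52, 11.04 and 10.59 in the control arrays and 10.33, 10.39 and 10.28 in the YY1bKO arrays. All its 3 probe sets were negative, from -0.48 to -0.36, with none called. Its control spread was the widest of the 45 genes (SD 0.28), through control replicate 2. The log2 fold change of Psme4 was -0.38 ± 0.14 (SE, adjusted p = 0.123), -0.22 (adjusted p = 0.0974) without control replicate 2 and -0.45 (adjusted p = 0.00568) with the muscle markers as a covariate. Psmf1, an inhibitor of the core in cell-free assays, gave 0.26 ± 0.09 (SE, adjusted p = 0.0881).

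The 2 genes that share only the name differed from each other. Psmc3ip, at 6.09, 5.90 and 6.12 in the control arrays and 7.32, 6.96 and 7.13 in the YY1bKO arrays, showed the largest difference of the 45 genes, 1.10 ± 0.12 (SE, adjusted p = 0.00275), or 2.14-fold higher, from control levels below the median of all probe sets (6.49). Psmc3ip was called in all 14 alternatives. Psme3ip1 overlapped between groups (0.01). Without this pair, 8 of 43 genes were higher and 2 lower, with an unchanged median of 0.17.

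Taken by probe set rather than by gene, 12 of 82 were called higher and 2 lower, where 8.67% and 7.29% of all probe sets with a single symbol were, or 16% in either direction. The 12 belong to 9 genes, which are not the same 9 as in the test by gene: Psma3 missed the threshold over probe sets (adjusted p = 0.0529), and Psma5 passed through its other bright probe set. Of the 82, 62 were bright and held 11 of the rises. The shares called among all bright probe sets were not computed. Among bright genes, 14% were called higher and 12.3% lower, more than over all probe sets. Among 21 genes with several probe sets, 6 had probe sets of opposite sign, Psma1, Psma6, Psmb1, Psmb4, Psmd11 and Psme3.

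**Figure D4:**
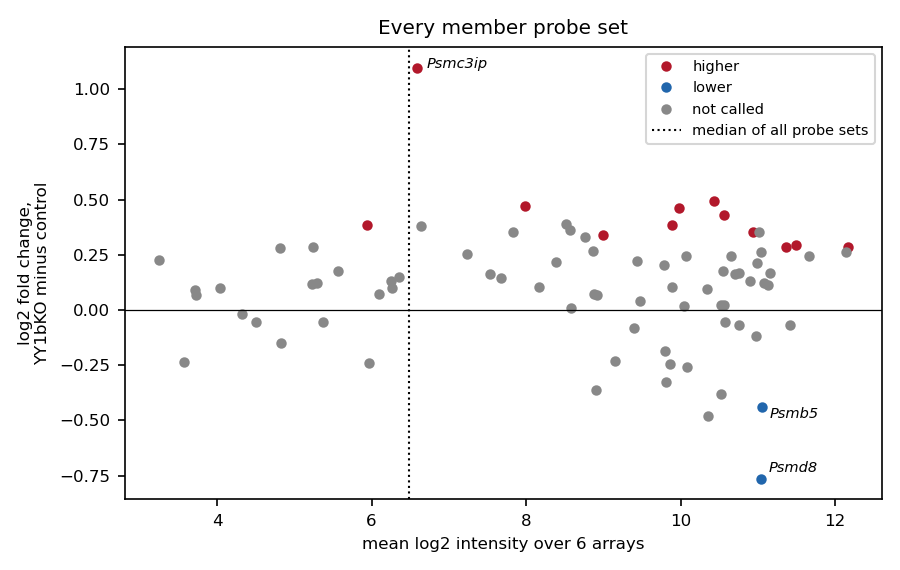
Log2 fold change (vertical axis) against mean log2 intensity over the 6 arrays (horizontal axis) for the 82 probe sets. Red and blue points were called higher and lower over all probe sets, and the dotted line marks the median intensity of all probe sets, 6.49. Called probe sets lie to the right of it with 1 exception, a probe set of Psme3.

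Partners of the proteasome outside the family name were read from a list of 13 measured genes, of which 2 were higher and 1 lower. These are 15.4% and 7.69% of the 13, all bright, against 14% and 12.3% of bright genes. Uchl5, a deubiquitinase that docks on the 19S cap, was at 9.41, 9.51 and 9.46 in the control arrays and 10.28, 10.22 and 10.22 in the YY1bKO arrays. It rose by 0.78 ± 0.07 (SE, adjusted p = 0.00175), or 1.71-fold, more than any subunit. It was called in all 14 alternatives, at 0.39 when its probe sets were averaged (adjusted p = 0.0175) and at 0.75 to 0.81 in the other 13. Sem1, a small lid subunit, rose by 0.32 ± 0.08 (SE, adjusted p = 0.0406). Ubqln2, which shuttles ubiquitinated proteins to the proteasome, fell (-0.54 ± 0.11, SE, adjusted p = 0.0207). The Sem1 call was lost without any array but control replicate 2 (adjusted p = 0.0776 to 0.134). That of Ubqln2 was lost without control replicate 1 or any YY1bKO array (0.0562 to 0.0825), and when its probe sets were averaged (-0.13). Pomp, a chaperone of core assembly, lay wholly above control without passing (0.22 ± 0.07, SE, adjusted p = 0.0780).

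Regulators of proteasome gene transcription did not pass. None of 12 measured genes was called by limma. Before adjustment, 3 rises and 0 falls had p under 0.05, against 2220 and 1740 among all 12393 genes. Nfe2l1 was at 10.40, 10.47 and 10.48 in the control arrays and 10.30, 10.25 and 10.43 in the YY1bKO arrays, with overlapping groups (-0.13 ± 0.08, SE, adjusted p = 0.341). Nfe2l2 was at 10.15, 9.96 and 10.15 in the control arrays and 10.45, 10.18 and 10.27 in the YY1bKO arrays (0.21 ± 0.10, SE, adjusted p = 0.201), and Nfyc, a subunit of NF-Y, gave 0.24 ± 0.07 (SE, adjusted p = 0.0626). Among 27 ubiquitin-conjugating enzymes 1 was called higher (3.7%) and 0 lower, where 14% and 12.3% of bright genes were. The 1 was Ube2j2, an enzyme of the endoplasmic reticulum (0.38 ± 0.08, SE, adjusted p = 0.0193). It lost its call without control replicate 1 or any YY1bKO array (adjusted p = 0.0544 to 0.0772). Of 7 measured genes of antigen processing, Tap1, which carries proteasome products into the endoplasmic reticulum, was the one called (0.68 ± 0.08, SE, adjusted p = 0.00316), and it was not called when its probe sets were averaged (0.20, adjusted p = 0.0839). The call of Tap1 is 14.3% of the 7, where 14% of bright genes were called higher.

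Start-site windows were found for 37 of the 45 genes, 40 windows in all. CCAAT stood in those of 14 genes, or 37.8%, against 42.3% of all tested genes with a window and 42.6% of the bright ones. Among these 14 genes 7 were called higher and 0 lower, with a median of 0.26, whereas of the 23 without the box 2 were higher and 2 lower, with a median of 0.14. The difference in calls between genes with and without the box was not tested. The 14 include Psmc3ip, 1 of the 7, and Psme3ip1, which share only the name. Without this pair, 12 of 35 genes with a window held the box (34.3%). Over all tested genes with a window, 11.2% of those with CCAAT and 9.75% of those without were called higher. Among the bright ones, the closer background, these shares were 15.2% and 13.3%. AANATGGCG stood in windows of 4 of the 37 genes (10.8%, against 4.72% of all tested genes and 6.86% of the bright ones), those of Psmb5, Psmd8, Psmb6 and Psmc5 printed above. Both genes that fell were among these 4, along with Psmb6, which rose, and Psmc5, which was not called. TGACNNNGC stood in 6 of 37 (16.2%, against 16.3% of all tested genes and 16.9% of the bright ones). Of these 6, 1 was higher (Psmb6) and 1 lower (Psmb5). A match describes letters in a window and is no evidence of binding.

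The SD among arrays had a median of 0.08 in control and 0.05 in YY1bKO over the 45 genes, and was not compared with that of other genes. Control replicate 2 gave the highest control value in 19 of the 45 genes and the lowest in another 19, against 11 and 15 for control replicate 1 and 15 and 11 for control replicate 3. For the alpha subunits, the median difference from the control mean was 0.28, 0.29 and 0.28 in YY1bKO replicates 1, 2 and 3, and for the 19S genes it was 0.12, 0.12 and 0.13.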

How the data were processed

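Intensities for 22690 probe sets on 6 Affymetrix arrays, made from 6 ug of total RNA, were deposited as 1 table. Per the submitters' processing notes the authors used RMA; which software ran it is not stated there. RMA usually brings arrays to a common distribution, which can hide a shift common to most transcripts, and compresses fold changes of dim probe sets. The deposited arrays were close but not identical in distribution, with lowest intensities of 4.91 to 5.31. The deposited intensity values were linear and were turned into log2 with no pseudocount. Array medians lay between 6.47 and 6.48, and with no detection calls, a gene was dim when its mean was at or below 6.49, the median over probe sets.

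Probe sets were named by the platform annotation: 20380 had 1 symbol, 691 several and 1555 none, besides 64 controls. The brightest probe set stood for each of 12393 genes. The fit was limma 3.58.1 in R 4.3.3 (lmFit, eBayes, group as the sole term), two-sided, Benjamini-Hochberg over all genes, checked on simulated data. SE is the moderated standard error. Single values per array were compared by exact permutation tests (SciPy 1.17.1). With 3 arrays a group, their number limits precision, and as nothing says that replicates are separate animals, the p-values rest on a spread among arrays that may be technical. The labels name no batch.

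Every member may be named; values on all arrays are given for called members, the 4 with the largest change and those whose probe sets disagree in sign with 1 of them called, and for some others, and other genes come from lists of partners, regulators, conjugating enzymes, antigen processing and cell type markers. Ubiquitin and E1 genes were not analysed here. Members and lists were chosen with earlier results of these data known. The 14 alternatives were dropping each array, averaging probe sets, removing dim probe sets, array weights, median centring, quantile normalization, a trended and robust eBayes, blocking on replicate number, and a covariate made of the mean of 14 muscle markers.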

Additional observations from a re-analysis of the deposited data

How the results depend on the processing

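The median log2 fold change of the 45 genes was 0.160 to 0.205 over the 14 alternatives, while the counts of calls moved. Against 9 genes and 12 probe sets higher and 2 of each lower, array weights gave 15 and 23, and leaving out dim probe sets gave 19 probe sets higher and 4 lower. With the muscle markers as a covariate 5 genes were lower, with 20 probe sets higher and 7 lower. Leaving out 1 array gave 3 to 11 genes higher and 1 to 2 lower, and 3 to 16 probe sets higher and 1 to 3 lower. Over all genes these settings moved the counts too, from 1267 higher and 1003 lower to 547 to 1661 and 466 to 1439 when 1 array was left out, and to 1866 and 1793 with the muscle covariate; the cause was not tested.

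Same-numbered arrays did not deviate together (correlations of deviations from the group means -0.25, 0.11 and 0.26), so the numbers were not taken as pairs; as a replicate block they gave 4 genes and 3 probe sets higher, 2 of each lower, and 671 and 639 calls over all genes.

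Of the 11 called genes, 3 kept the call in all 14 alternatives (Psmc3ip, Psmd8 and Psmg3), and none changed sign. Of the 34 others, 11 were called in at least 1 alternative. Of 629 single-gene values, 557 kept direction and side of the threshold, 36 lost and 30 gained the call. Signs changed in 3 genes near 0, none called: over the left-out arrays Psma4 ranged from -0.0065 to 0.0705, Psmd1 from -0.0062 to 0.0565 and Psme3ip1 from -0.0106 to 0.0291.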

Other observations

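Over all tested genes with a start-site window, those holding AANATGGCG included 96 of 467 called lower, or 20.6%, and 37 called higher, or 7.92%. Among the 9420 genes without it, 7.63% were called lower and 10.5% higher. Genes with the motif were brighter (median of mean log2 intensity 8.31, against 6.96). Among bright genes alone, 22.1% of 390 with the motif and 11.5% of 5293 without were called lower, and their median log2 fold changes were -0.10 and 0.03. The comparison was made after the windows of the proteasome genes had been seen, and it was not tested. Of Psmb5, Psmd8, Psmb6 and Psmc5, which hold it, 2 were lower.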
